A study of Rattus norvegicus with 21 samples.

Results

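The genes described here are nuclear genes named as subunits of the 5 complexes of oxidative phosphorylation, chosen by symbol: a probe set with exactly 1 annotated gene whose symbol begins as those of the Nduf, Sdh, Uqcr, Cox4 to Cox8 or Atp5 families. Of 29214 probe sets, 88 met this rule and belonged to 76 genes, of 14506 genes with a symbol of their own. Complex I had 32 of the genes, complex II 4, complex III 7, complex IV 17 and complex V 16. Ndufa4 is named in the complex I series but known as a complex IV subunit, and it is counted with complex IV. In the test across 11940 genes, 73 entered, and 3 genes of complex IV (Cox6c-ps1, Cox8b and Cox8c) lay below the minimum mean signal of 6.62 on the log2 scale. The symbols also took in Atp5if1, an inhibitor of complex V, and 2 pseudogenes, Cox6c-ps1 and Ndufs6-ps1, of which Ndufs6-ps1 is counted with complex I and was tested. For 11 genes with several probe sets, the one with the highest mean was used.

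RNA from the dentate gyrus, the part of the hippocampus where granule neurons lie, was measured on arrays from 18 wild type male Wistar rats aged 2 months. There were 6 groups of 3 animals, which the labels call biological replicates. Groups named here agomelatine (40 mg/kg, in hydroxyethylcellulose), tianeptine (10 mg/kg, in saline), imipramine (10 mg/kg, in saline) and fluoxetine (10 mg/kg, in water) were exposed to unpredictable chronic mild stress over 6 weeks and were injected intraperitoneally each day in the last 2 weeks. The group named stress had the same 6 weeks of stress without a drug, and the group named control was neither stressed nor treated. No injection is described for stress and control animals, so drug, vehicle and injection cannot be told apart, and agomelatine also differed from the other drugs in dose. Each control animal was measured on 2 arrays, a first and a repeat array that the labels call a technical replicate, and its 2 values were averaged.

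Complexes I to IV, in the inner membrane of mitochondria, pass electrons from NADH and succinate to oxygen, and complexes I, III and IV pump protons as they do so. Complex V, ATP synthase, lets the protons flow back and makes ATP. Neurons depend on this pathway for the ATP that restores ion gradients after firing, and its subunits come from both the nuclear and the mitochondrial genome. None of the mitochondrial subunit genes was among the named probe sets used here.

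Across the 21 arrays the median log2 value of all probe sets lay between 7.99 and 8.1. The granule neuron markers Prox1 and C1ql2 ranged from 11.05 to 11.84 and from 11.16 to 12.06 over the 18 animals. The agomelatine animals stood apart from all other animals in oligodendrocyte markers, and other marker lists differed in part. A score, the mean deviation of a marker list from each gene's mean over the 18 animals, was 0.415 to 0.724 for 12 oligodendrocyte markers in agomelatine animals and -0.203 to 0.038 in all others. It was 0.154 to 0.49 for 11 markers of pyramidal neurons of the CA fields in agomelatine animals, against -0.13 to 0.259 in stress animals. For 5 granule neuron markers it was -0.235 to -0.137, against -0.06 to 0.037 in stress animals. Of these 5, measured out of 10 listed, 4 lay below 0 against stress (2 called lower) and 1 above. For 11 astrocyte markers it was -0.252 to 0.007 in agomelatine animals, against 0.027 to 0.125 in stress animals. All 11 markers lay below 0 in agomelatine against stress, and 2 of them were called lower. Agomelatine animals 1 and 2, at -0.031 and 0.007, lay within the control range of -0.093 to 0.011. Against control 4 of these markers lay above 0 and 7 below. The pyramidal scores overlapped between agomelatine and stress animals, and those of oligodendrocytes, granule neurons and astrocytes did not. For 9 choroid plexus markers it was 3.314 in agomelatine animal 1 and 0.636 at the highest in stress animals. In tissue RNA, fewer cells of a type and less RNA per cell cannot be told apart.

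As a group the 73 genes moved little. Averaged over all of them, an animal's deviation from the gene means ran from -0.052 to 0.161 on the log2 scale in agomelatine animals, from -0.073 to 0.062 with tianeptine, from -0.081 to -0.04 with imipramine, from -0.07 to 0.087 with fluoxetine, from -0.031 to 0.086 in stress animals and from -0.04 to 0.009 in control animals. Imipramine was the only group in which all 3 animals lay below 0. Its range overlapped those of agomelatine, tianeptine and fluoxetine, and met that of control at -0.04. Single animals set much of the spread. Agomelatine animal 1, the one with choroid plexus markers, was the highest of its group in 60 of the 73 genes (82.2%, against 39.6% of all genes tested), and agomelatine animal 3 was the lowest in 49 (67.1%, against 43.3%). Fluoxetine animal 3 was the lowest of its group in 47 genes (64.4%, against 37.8%). The median SD between animals over the 73 genes was 0.137 in agomelatine and 0.133 in fluoxetine animals, where all genes tested had medians of 0.118 and 0.085.

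**Figure D1:**
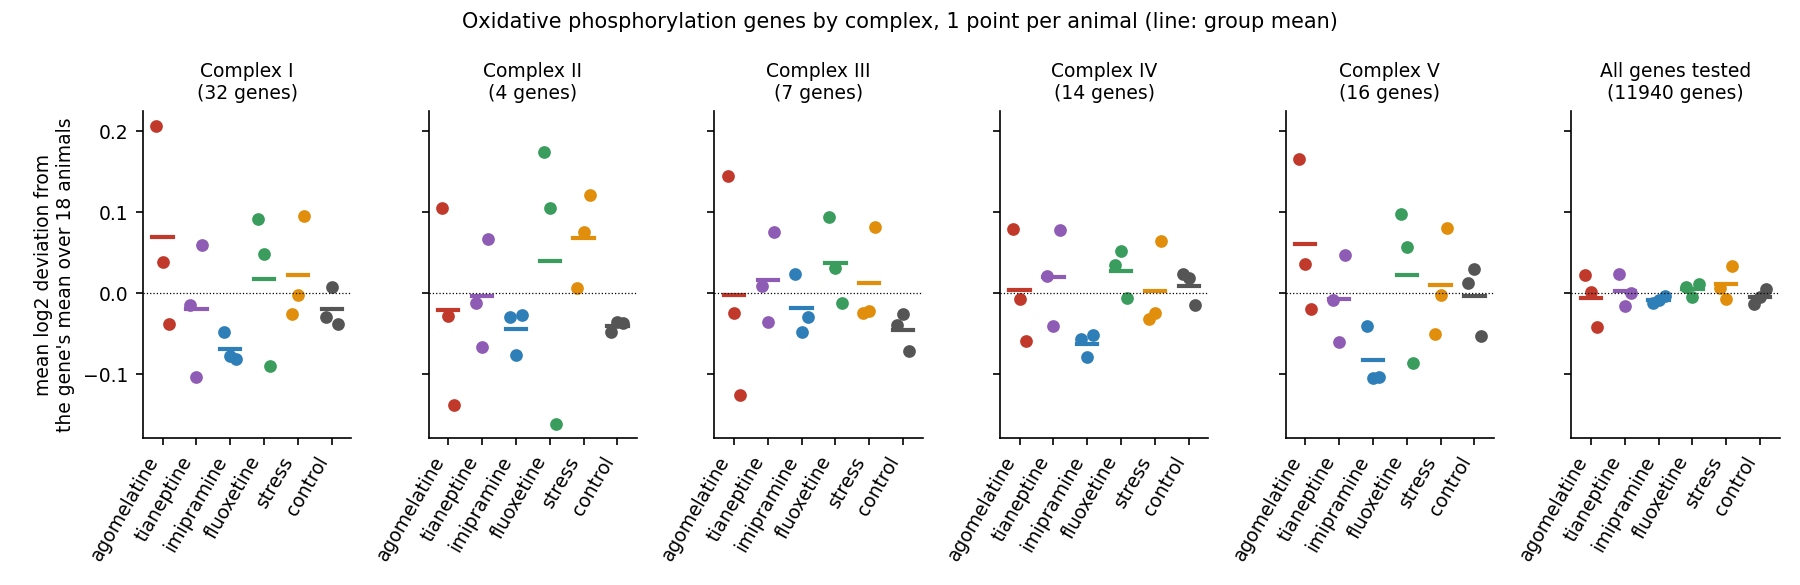
Mean deviation of the genes of each complex from each gene's mean over 18 animals (vertical axis, log2), with 1 point per animal and a line at the group mean, by group (horizontal axis). The agomelatine and stress animals overlap in every complex, and the 3 imipramine animals lie below 0 in complexes I, II, IV and V.

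Comparison among all 6 groups asked which subunit genes differed anywhere. By limma's moderated F test, 9 of the 73 genes passed an adjusted p of 0.05, as did 5.73% of all genes tested. They were 5 genes of complex I (Ndufs5, Ndufb10, Ndufa5, Ndufa6 and Ndufb3) and 4 of complex V (Atp5if1, Atp5mc2, Atp5mg and Atp5mk). The smallest adjusted p-values were 0.0047 for Atp5if1, which encodes the inhibitor of ATP hydrolysis by complex V, 0.00492 for Ndufs5 and 0.00843 for Atp5mc2. In 8 of the 9 the agomelatine mean was the highest of the 6, and for Atp5mc2 it was the lowest. Of these, Ndufb10 was not called in agomelatine against stress or against control. Its imipramine mean, 10.72, was the lowest of the 6, against 11.11 in agomelatine animals (difference 0.39 ± 0.07, limma adjusted p = 0.00234). Without agomelatine animal 1 only 3 genes passed.

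Agomelatine against stress was the only one of the 5 main comparisons (each drug against stress, and stress against control) with genes past the threshold. There 12 of 73 passed an adjusted p of 0.05 in limma, 10 higher and 2 lower in agomelatine animals, where 9.54% of all genes tested passed (3.78% higher, 5.76% lower). On the whole 42 genes lay above 0 and 31 below, with a median difference of 0.015 (all genes tested, -0.021). This split moved to 53 and 20 with equal array medians, and to 28 and 45 without agomelatine animal 1. Equal array medians shift all genes of an array, and the split of all genes in that setting is not given here. In 15 genes the agomelatine and stress animals did not overlap (20.5%, against 23.7% of all genes tested). Complex I had 6 of the called genes, complex II 1, complex III none, complex IV 1 and complex V 4. The count was 5 without stress animal 2 and 7 without agomelatine animal 1. Ndufs5, Atp5mg, Atp5mk, Atp5if1 and Atp5mc2 passed whichever of the 6 animals was left out. The score of oligodendrocyte markers did not overlap between the same animals, and all 12 of those markers were called higher. Its part in the subunit genes' differences was not tested.

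In complex I all 6 called genes were higher in agomelatine animals. Accessory subunits, which surround the catalytic core, made up 5 of them, where 25 accessory and 6 core subunits were measured. Ndufs5, a small subunit on the side of the intermembrane space, had log2 values of 11.64, 11.54 and 11.58 in agomelatine animals, against 11.2, 11.03 and 11.11 in stress animals. The lowest agomelatine animal was above the highest stress animal. The difference was 0.47 ± 0.08 (SE, n = 3 each, limma adjusted p = 0.00259), and the second probe set of Ndufs5 averaged 11.08 in agomelatine and 10.69 in stress animals. Ndufa6, an accessory subunit of the matrix arm that binds the acyl carrier protein, had 10.41, 10.31 and 10.08 in agomelatine animals, against 9.77, 9.88 and 9.99 in stress animals. Its groups did not overlap either, and the difference was 0.39 ± 0.10 (adjusted p = 0.0188). Ndufb6, an accessory subunit of the membrane arm, had 12.71, 12.38 and 12.56 in agomelatine animals, against 12.45, 12.11 and 11.96 in stress animals. Here stress animal 1 lay above agomelatine animal 2, so that the groups overlapped, with a difference of 0.38 ± 0.10 (adjusted p = 0.0262).

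Ndufb3, also of the membrane arm, had 10.24, 9.96 and 10.21 in agomelatine animals, against 9.74, 9.84 and 9.86 in stress animals (difference 0.32 ± 0.08, adjusted p = 0.0204). Ndufa5, of the matrix arm, had 11.07, 10.93 and 10.92 in agomelatine animals, against 10.58, 10.56 and 10.85 in stress animals (difference 0.31 ± 0.08, adjusted p = 0.0249). Neither gene overlapped between groups. Ndufv2 was the only core subunit called; its protein carries an iron-sulphur cluster of the module that takes electrons from NADH. It had 12.46, 12.41 and 12.44 in agomelatine animals, against 12.34, 12.27 and 12.23 in stress animals, a difference of 0.15 ± 0.04 (adjusted p = 0.0278). Of the 6 core subunits measured, 3 lay above 0 and 3 below, with Ndufs3 at -0.25 ± 0.15 (adjusted p = 0.295) and Ndufs1 at 0.19 ± 0.09 (adjusted p = 0.174). The lowest difference of all 73 genes was that of the accessory subunit Ndufb2, at -0.48 ± 0.27 (adjusted p = 0.275). Ndufb2 read 9.62, 8.45 and 8.48 in agomelatine animals, against 9.26, 9.41 and 9.35 in stress animals: agomelatine animal 1 was the highest of the 6 and the other 2 were the lowest. Without that animal the difference was -0.87 (adjusted p = 0.0274).

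In complex II, succinate dehydrogenase, the membrane anchor gene Sdhc fell: it had 11.83, 11.58 and 11.48 in agomelatine animals, against 11.92, 12 and 11.99 in stress animals. The groups did not overlap, and the difference was -0.34 ± 0.09 (adjusted p = 0.0199). The other complex II genes were within 0.02 of 0: the catalytic Sdha at -0.02 ± 0.09, the iron-sulphur subunit Sdhb at 0.02 ± 0.09 and the other anchor, Sdhd, at -0.02 ± 0.07. In complex III, cytochrome bc1, no gene was called. Its differences ran from -0.2 for Uqcrc1, a core protein, to 0.13 for Uqcrfs1, the Rieske iron-sulphur protein, which had adjusted p-values of 0.209 and 0.563.

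In complex IV, cytochrome c oxidase, 1 of 14 genes was called. Cox7a2l, whose protein joins complexes III and IV into supercomplexes, had 11.92, 11.85 and 11.87 in agomelatine animals, against 11.74, 11.58 and 11.63 in stress animals. The groups did not overlap (difference 0.23 ± 0.07, adjusted p = 0.0367). The other complex IV genes lay between -0.14 for Cox4i1 and 0.11 for Cox7b.

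Complex V held the gene with the smallest adjusted p, Atp5mk, which encodes a small membrane subunit also known as DAPIT. It had 12.18, 12.03 and 12.18 in agomelatine animals, against 11.81, 11.73 and 11.78 in stress animals, a difference of 0.35 ± 0.06 (adjusted p = 0.0024). Its second probe set averaged 12.03 in agomelatine and 11.71 in stress animals. Atp5mg, the g subunit of the membrane part, had 10.38, 10.07 and 10.32 in agomelatine animals, against 9.89, 9.84 and 9.85 in stress animals (difference 0.39 ± 0.09, adjusted p = 0.00865). Atp5if1 had 12.3, 12.24 and 12.28 in agomelatine animals, against 12.08, 12.01 and 12.01 in stress animals (difference 0.24 ± 0.05, adjusted p = 0.00774). In all 3 genes every agomelatine animal was above every stress animal.

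Atp5mc2 moved the other way. It is 1 of 3 genes for the same mature c subunit, which forms the rotor ring. It had 11.65, 11.46 and 11.25 in agomelatine animals, against 11.81, 12.01 and 11.92 in stress animals, without overlap (difference -0.46 ± 0.08, adjusted p = 0.00253). Its second probe set averaged 11.25 in agomelatine and 11.41 in stress animals. The other c subunit genes, Atp5mc1 and Atp5mc3, were at 0.17 ± 0.08 (adjusted p = 0.219) and 0.13 ± 0.06 (adjusted p = 0.231). None of the 5 genes of the catalytic F1 head was called, and their differences ran from -0.19 for Atp5f1d to 0.08 for Atp5f1c.

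**Figure D2:**
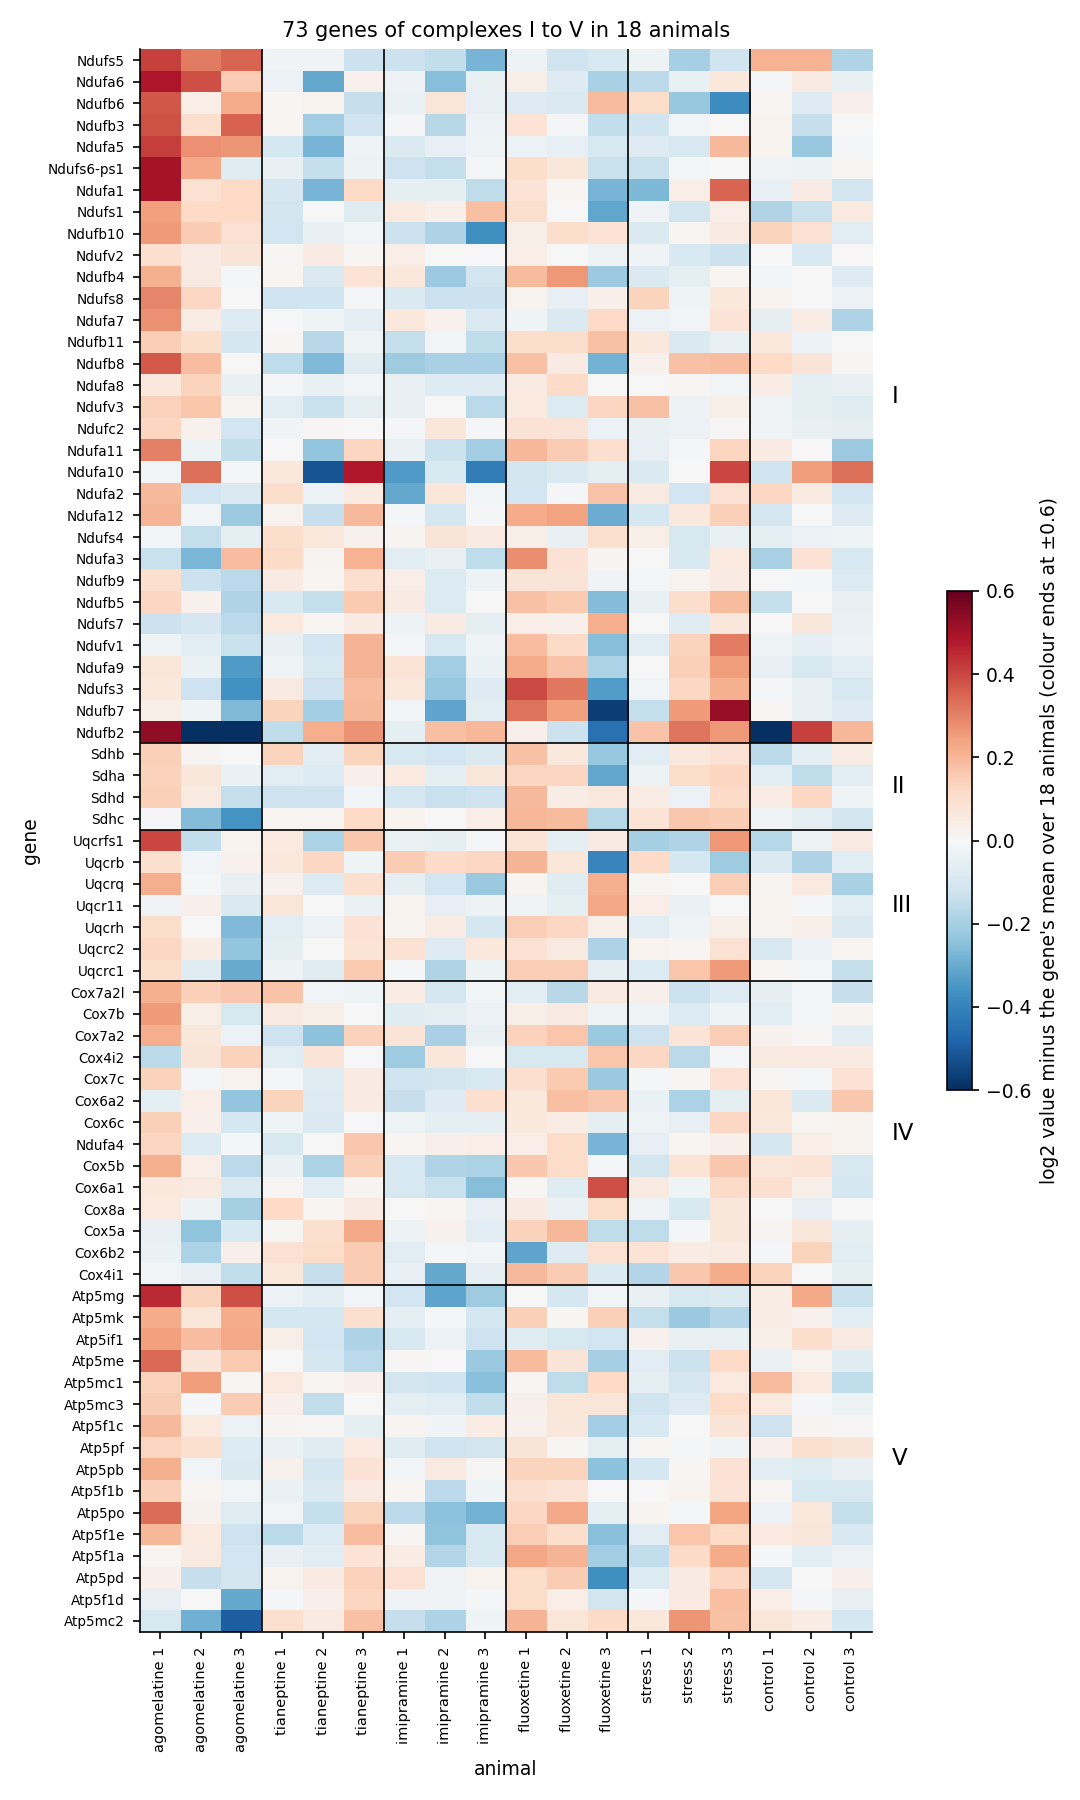
Deviation (log2) from each gene's mean of 18 animals for the 73 genes (rows, by complex, ordered within it by the agomelatine minus stress difference) in each animal (columns, by group), with red above and blue below the mean. Genes at the top of complexes I and V are red in all 3 agomelatine animals, and Ndufb2 is split within that group.

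The control animals offered a look at the same genes in 2 arrays of the same animal, with no treatment between them. Repeat arrays differed from first arrays in many subunit genes: all 3 animals moved the same way in 43 of the 73, 16 higher and 27 lower on the repeat array (58.9%, against 42.9% of all genes tested). In limma, 28 genes passed an adjusted p of 0.05 (11 higher, 17 lower), where 10.8% of all genes tested passed. With 3 pairs this count rests on the variance model, and in limma without the trend it was 0. The largest difference was that of Atp5mg, which had 10.23, 10.36 and 10.08 on repeat arrays, against 9.74, 9.97 and 9.51 on first arrays of control animals 1, 2 and 3, a mean of 0.48 ± 0.06 (SE, n = 3). The next were Ndufb7 at -0.43 ± 0.06 and Ndufa9, a matrix arm subunit, at -0.35 ± 0.05, both lower on the repeat array in all 3 animals. Ndufa8 and Ndufs6-ps1 were at 0.00 and Ndufa7 at 0.01.

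The genes called in agomelatine against stress mostly moved with the repeat arrays, and these 2 comparisons share no array. Of the 10 genes higher in agomelatine animals, 8 were also higher on the repeat array in all 3 control animals, and the exceptions were Ndufb3 (-0.07) and Ndufa5 (0.02). Both genes lower in agomelatine animals, Sdhc (-0.32) and Atp5mc2 (-0.15), were lower on the repeat array in all 3. Over all genes tested, 56.5% of the 451 called higher and 71.5% of the 688 called lower did the same, where 17.3% and 25.5% of all genes were higher or lower on the repeat array in all 3. Across the 73 genes, 49 had the same sign in both, with a Pearson r of 0.666 as a description (0.456 across all genes). What differed between the repeat and first arrays is not given in the labels, and its part in the agomelatine difference was not tested.

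**Figure D3:**
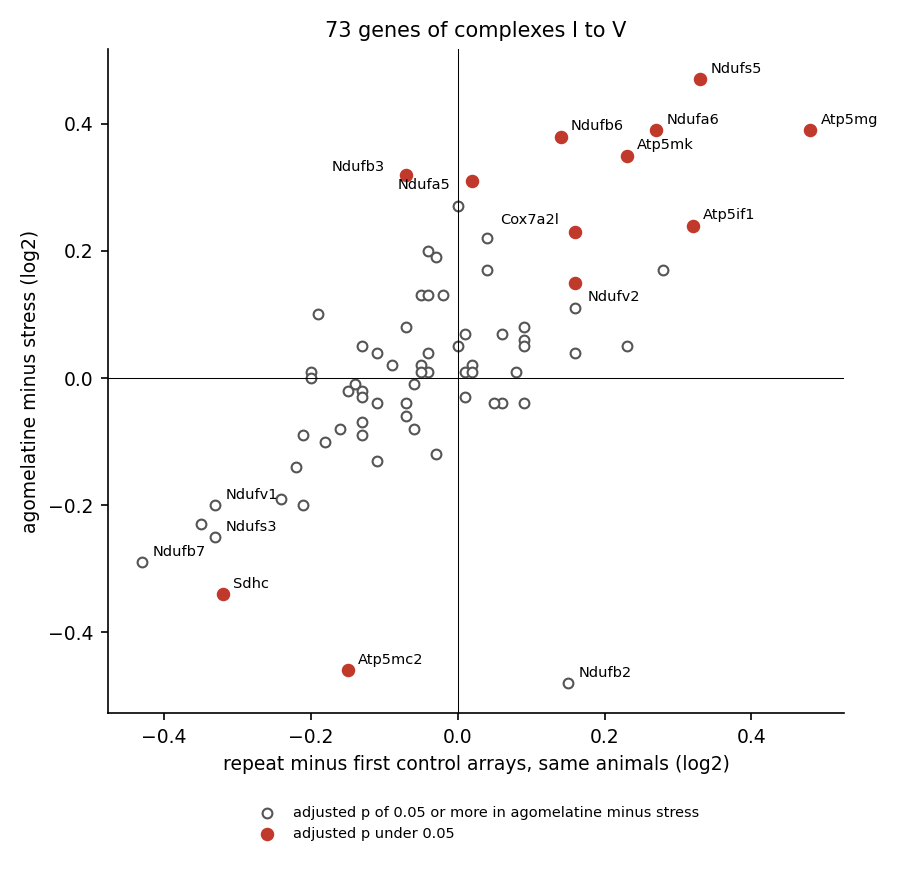
Agomelatine minus stress (vertical axis, log2) against repeat minus first control arrays of the same animals (horizontal axis, log2), with 1 point per gene and the called genes in red. Most called genes lie toward the upper right or lower left, while Ndufb3 and Ndufa5 lie near 0 on the horizontal axis.

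Agomelatine against control depended on which control arrays were used. With both arrays averaged, 6 of the 73 genes passed in limma (Ndufs5, Ndufa6, Ndufb3, Ndufa5 and Cox7a2l higher, Atp5mc2 lower), where 8.58% of all genes tested passed. Against the first control arrays alone 15 passed, 11 higher and 4 lower. Against the repeat control arrays alone 2 passed, Ndufb3 at 0.35 (adjusted p = 0.0224) and Ndufa5 at 0.38 (adjusted p = 0.0184). The shares of all genes tested that passed with first or repeat arrays alone are not given here. So a change in the subunit genes cannot be told from a change in all genes. Atp5mg was at 0.51 (adjusted p = 0.00193) against the first arrays and at 0.03 (adjusted p = 0.854) against the repeat arrays. Atp5if1 was at 0.31 (adjusted p = 0.000925) against the first and at -0.01 (adjusted p = 0.96) against the repeat arrays. Ndufs5 was at 0.44 (adjusted p = 0.00119) against the first and at 0.11 (adjusted p = 0.514) against the repeat arrays. With averaged arrays the count was 3 without control animal 1, 1 without control animal 2 and 2 without agomelatine animal 1.

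**Figure D4:**
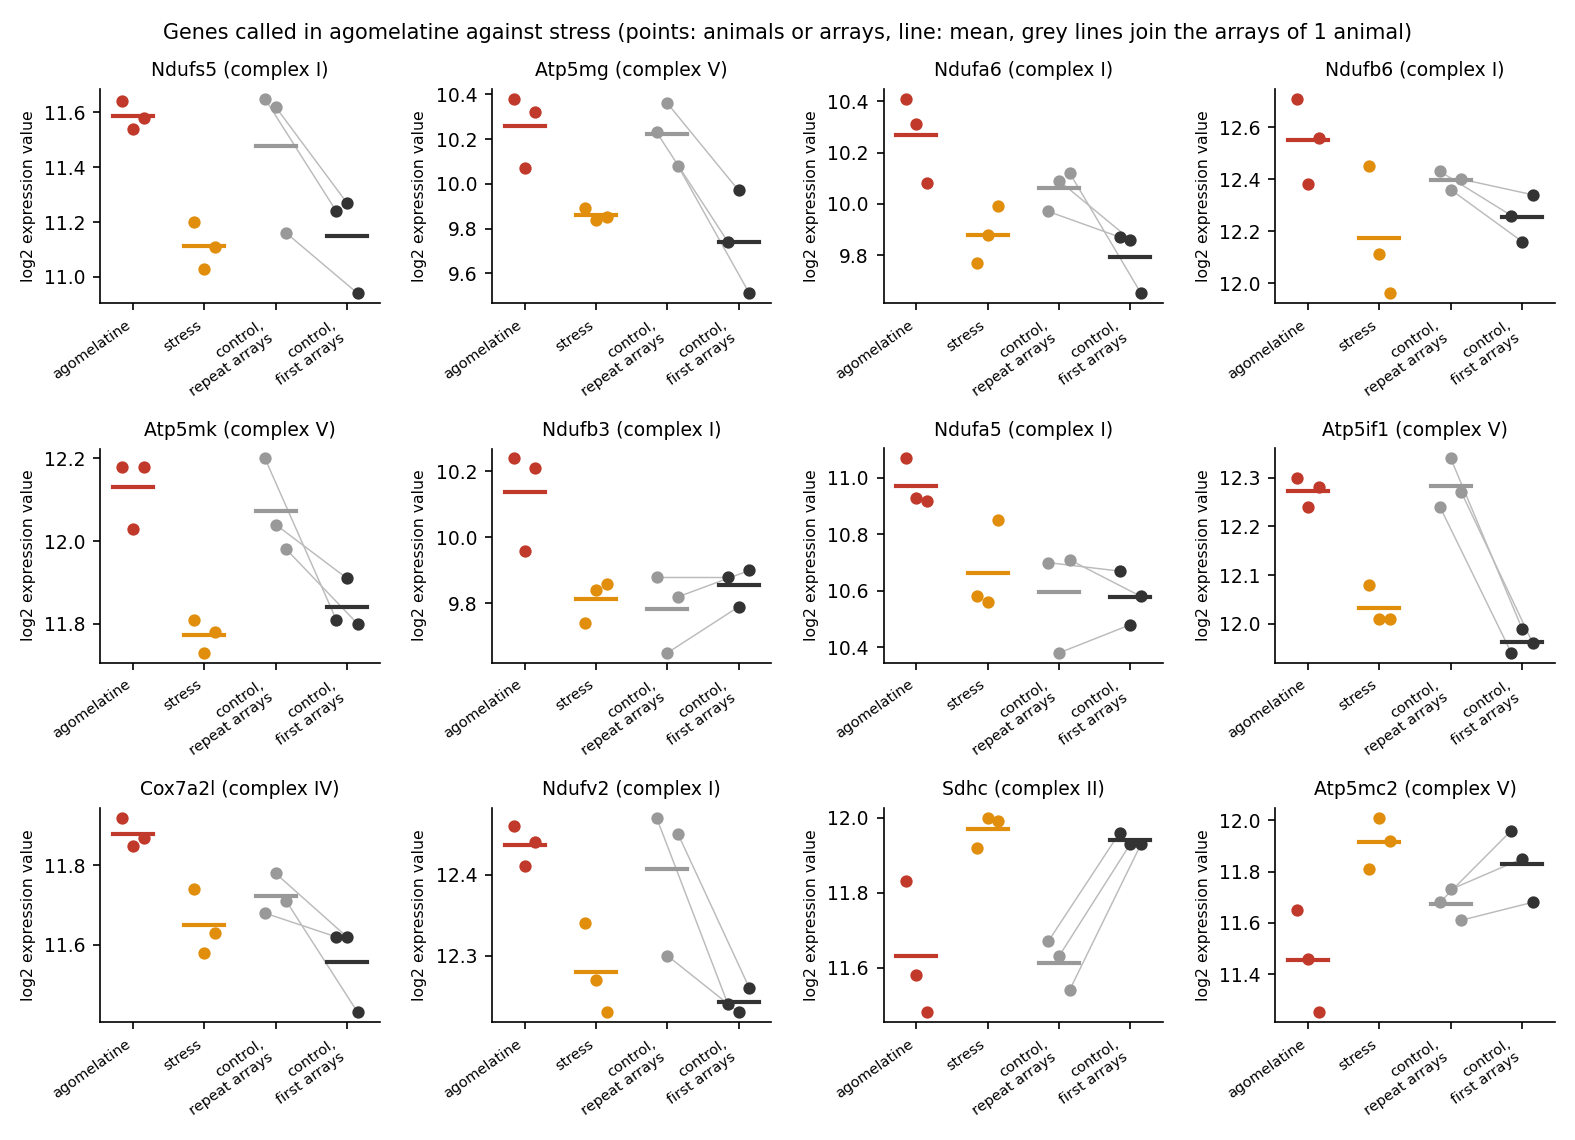
Log2 values of the 12 genes called in agomelatine against stress (1 panel per gene), with points for agomelatine animals, stress animals, repeat control arrays and first control arrays, a line at each mean and grey lines joining the arrays of 1 animal. Repeat arrays of Atp5if1 sit at 12.24 to 12.34, level with the agomelatine animals, and those of Ndufb3 at 9.65 to 9.88, level with the stress animals.

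The promoters of Ndufs5, Atp5mk and Ndufa6, which were higher in agomelatine animals, and of Atp5mc2, which was lower, are shown because they belong to the called genes with the largest or best supported differences and hold different matches to motifs of factors known to act on such genes. Each run is 300 bases of RefSeq's rat assembly GRCr8, from 250 bases before to 50 bases after the annotated start, all 4 on the minus strand, with motif matches in capitals.
Ndufs5 (chr5:141264353-141264652): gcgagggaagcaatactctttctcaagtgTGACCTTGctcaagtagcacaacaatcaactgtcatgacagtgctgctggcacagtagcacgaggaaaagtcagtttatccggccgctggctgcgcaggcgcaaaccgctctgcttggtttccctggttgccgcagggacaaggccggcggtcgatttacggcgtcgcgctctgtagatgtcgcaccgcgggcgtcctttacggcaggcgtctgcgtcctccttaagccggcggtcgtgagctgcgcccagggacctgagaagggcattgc
Atp5mk (chr1:255921998-255922297): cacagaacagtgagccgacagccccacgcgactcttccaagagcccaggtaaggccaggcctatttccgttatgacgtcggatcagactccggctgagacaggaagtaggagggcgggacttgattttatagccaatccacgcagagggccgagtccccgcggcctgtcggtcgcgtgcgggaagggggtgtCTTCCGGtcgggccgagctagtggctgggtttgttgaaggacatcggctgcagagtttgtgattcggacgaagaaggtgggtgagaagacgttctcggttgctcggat
Ndufa6 (chr7:115750268-115750567): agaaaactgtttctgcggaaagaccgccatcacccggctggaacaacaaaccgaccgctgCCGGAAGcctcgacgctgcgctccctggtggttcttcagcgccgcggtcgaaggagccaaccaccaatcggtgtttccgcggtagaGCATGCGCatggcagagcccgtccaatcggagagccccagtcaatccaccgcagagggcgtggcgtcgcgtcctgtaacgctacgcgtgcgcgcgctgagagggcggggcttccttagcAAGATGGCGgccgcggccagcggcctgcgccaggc
Atp5mc2 (chr7:135678169-135678468): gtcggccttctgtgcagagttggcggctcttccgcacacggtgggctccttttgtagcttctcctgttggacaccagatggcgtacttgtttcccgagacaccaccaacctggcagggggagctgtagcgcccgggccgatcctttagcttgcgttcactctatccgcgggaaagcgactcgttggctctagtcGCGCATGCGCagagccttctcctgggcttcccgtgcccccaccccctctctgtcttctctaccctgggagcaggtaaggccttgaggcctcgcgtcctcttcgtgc
The motifs searched on both strands were GCGCATGC (NRF1), CCGGAAG (the ETS family), AAGATGGCG (YY1) and CAAGGTCA (estrogen-related receptors). Ndufs5 held the last of these 221 bases before the start and Atp5mk an ETS match 58 bases before it. Ndufa6 held an ETS match 190 and an NRF1 match 104 bases before the start, and a YY1 match 15 bases after it. Atp5mc2 held 2 overlapping NRF1 matches, 56 and 54 bases before the start, 1 on each strand.

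RefSeq promoters matched 66 of the 76 genes, and 31 held at least 1 of the 4 motifs. NRF1 matched 9 (13.6%, against 2.47% of all 33469 promoters in the table), the ETS motif 20 (30.3%, against 8.75%), YY1 8 (12.1%, against 1.73%) and the estrogen-related receptor motif 4 (6.06%, against 1.52%). Among promoters of genes tested these shares were 4.42%, 15%, 3.1% and 0.995%. Of the 12 genes called in agomelatine against stress, 3 held NRF1, 3 ETS, 1 YY1 and 1 the receptor motif. A match is a run of letters and says nothing of binding.

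Imipramine against stress called none of the 73 genes in limma (0% of all genes tested), though most differences lay below 0. In imipramine animals 57 of 73 genes were lower on average and 16 higher, with a median of -0.073 (all genes tested, -0.018, with 6869 of 11940 below 0). An unadjusted p under 0.05 was found for 8 genes, 7 lower and 1 higher (11%, against 9.41% of all genes tested, 6.15% lower and 3.27% higher), and 20 genes did not overlap between groups (27.4%, against 19%). Scaling moved the split: with equal array medians 44 lay below 0 and 29 above, with a median of -0.023 (all genes, 0.031), and after a further quantile normalization 51 and 22, with -0.053. Without stress animal 3 it was 49 below and 24 above.

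The lowest values with imipramine were in complex I. Ndufa10, an accessory subunit, had 7.88, 8.12 and 7.8 in imipramine animals, against 8.13, 8.22 and 8.62 in stress animals, a difference of -0.39 ± 0.19 (adjusted p = 0.533). Ndufb8 had 9.77, 9.79 and 9.79 in imipramine animals, against 10.01, 10.16 and 10.17 in stress animals, a difference of -0.33 ± 0.10 (adjusted p = 0.485). Neither overlapped between groups. Ndufb7 was at -0.34 ± 0.19 and its groups overlapped. Of the 32 complex I genes 27 lay below 0, among them all 11 Ndufa genes counted with complex I, between -0.39 and -0.01. Ndufa4, counted with complex IV, was at 0.03 ± 0.08. In complex V, Atp5po, the subunit that ties the peripheral stalk to the F1 head, had 9.64, 9.55 and 9.51 in imipramine animals, against 9.81, 9.79 and 10.03 in stress animals (difference -0.31 ± 0.10, adjusted p = 0.485). Atp5mc2 was at -0.29 ± 0.08 (adjusted p = 0.485). The highest differences were those of Uqcrb, a small subunit of complex III, at 0.20 ± 0.11, Ndufb6 at 0.16 ± 0.10 and Atp5mk at 0.13 ± 0.06, with adjusted p-values of 0.557, 0.631 and 0.537. Of the 6 groups, imipramine had the lowest mean in 32 of the 73 genes (43.8%, against 18.2% of all genes tested).

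**Figure D5:**
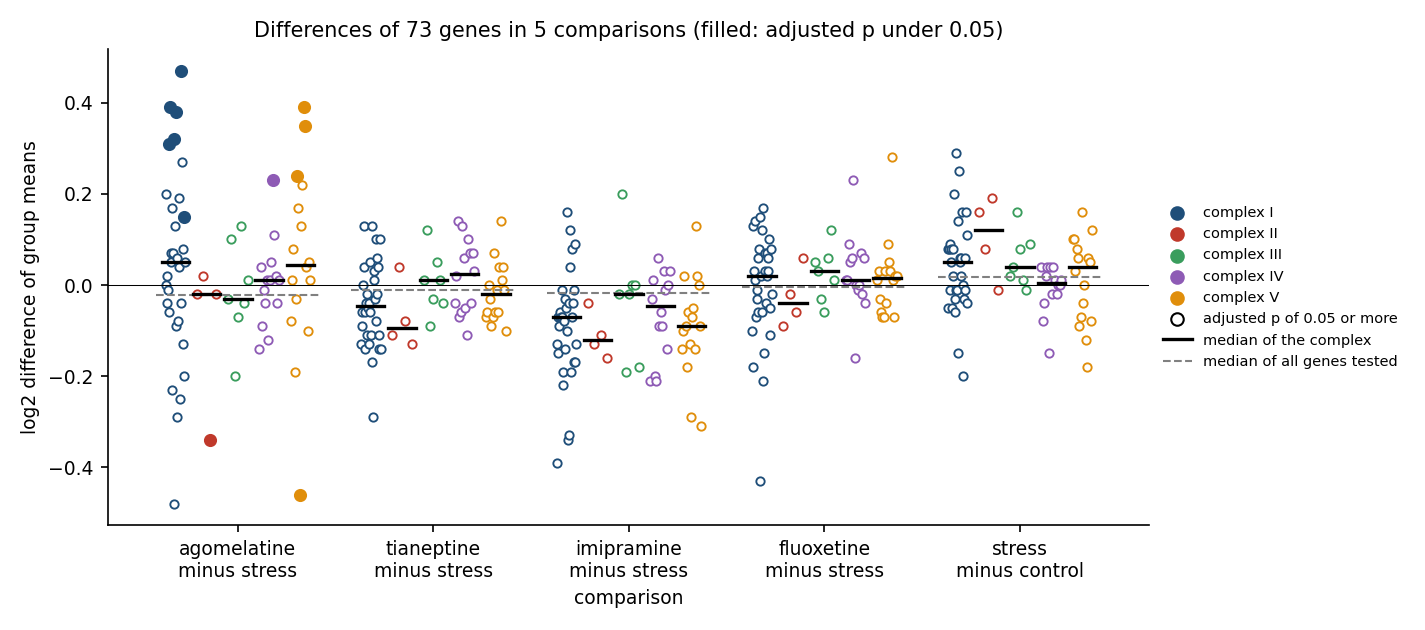
Log2 differences of group means of the 73 genes (vertical axis) in 5 comparisons (horizontal axis), coloured by complex and filled where the adjusted p was under 0.05, with solid lines at the median of a complex and dashed lines at the median of all genes tested. Only agomelatine minus stress holds filled points, and the medians of complexes I, II, IV and V with imipramine lie below the dashed line.

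Tianeptine against stress called none of the genes (0% of all genes tested), with 28 above and 45 below 0 and a median of -0.033 (all genes, -0.012). With equal array medians, which shift all genes of an array, 42 lay above and 31 below, and without stress animal 3 this was 41 and 32. An unadjusted p under 0.05 was found for 6 (8.22%, against 5.18%). Ndufb8 was the lowest and had 9.83, 9.72 and 9.91 in tianeptine animals, against 10.01, 10.16 and 10.17 in stress animals, without overlap (difference -0.29 ± 0.10, adjusted p = 0.94). Ndufb7 and Ndufa5 followed at -0.17 ± 0.19 and -0.14 ± 0.08. The highest were Atp5mk at 0.14 ± 0.06, Cox5a, a subunit of complex IV, at 0.14 ± 0.08 and Ndufb6 at 0.13 ± 0.10, none of them called.

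Fluoxetine against stress also called none of them (0% of all genes tested), with 42 above and 31 below 0 and a median of 0.014 (all genes, -0.005). With equal array medians, which shift all genes of an array, 53 lay above and 20 below, and without fluoxetine animal 3 this was 55 and 18. Only 3 had an unadjusted p under 0.05 (4.11%, against 5.18%). Atp5mk had 12.1, 11.96 and 12.1 in fluoxetine animals, against 11.81, 11.73 and 11.78 in stress animals, without overlap (difference 0.28 ± 0.06, adjusted p = 0.675). Cox6a2, the isoform of heart and muscle, was at 0.23 ± 0.09 and Ndufb6 at 0.17 ± 0.10. The lowest were Ndufb2 at -0.43 ± 0.27, Ndufb7 at -0.21 ± 0.19 and Ndufa10 at -0.18 ± 0.19. Ndufb7 had 10.51, 10.43 and 9.62 in fluoxetine animals, against 10.04, 10.44 and 10.71 in stress animals, and without fluoxetine animal 3 its difference was 0.07.

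Stress against control called none of the genes (0% of all genes tested), with 47 above and 26 below 0 and a median of 0.026 (all genes, 0.017). With equal array medians, which shift all genes of an array, 30 lay above and 43 below, and without stress animal 3 this was 37 and 36. An unadjusted p under 0.05 was found for 3 (4.11%, against 5.45%), and 7 did not overlap between groups (9.59%, against 13.4%). Atp5mk was again among the extremes: it had 11.81, 11.73 and 11.78 in stress animals, against 12, 11.98 and 11.89 in control animals, without overlap (difference -0.18 ± 0.06, adjusted p = 0.822). Ndufs5 was at -0.20 ± 0.08 and Ndufb6 at -0.15 ± 0.10. The highest were Ndufb2 at 0.29 ± 0.27, Ndufb7 at 0.25 ± 0.19 and Ndufa9 at 0.20 ± 0.11. Most of these extremes depended on the control arrays used. Against the first control arrays alone Ndufs5 was at -0.03, Atp5mk at -0.07, Ndufb6 at -0.08, Ndufb7 at 0.03 and Ndufa9 at 0.02. Against the repeat control arrays alone Ndufs5 was at -0.36, Atp5mk at -0.30 (adjusted p = 0.0441), Ndufb6 at -0.22, Ndufb7 at 0.46 and Ndufa9 at 0.38. Ndufb2 had 9.26, 9.41 and 9.35 in stress animals, against 8.34, 9.5 and 9.29 in control animals: control animal 1 was far below the rest, on its first array (8.16) and its repeat array (8.53). Without that animal the difference was -0.06. Atp5mk read lower in the 3 stress animals than in every drug-treated animal, and the drug comparisons share those 3. Its first control arrays, at 11.81, 11.91 and 11.8, overlapped the stress animals.

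Between drugs, agomelatine differed from each of the others in a few genes. Against tianeptine 12 genes were called, 10 higher and 2 lower, where 11.8% of all genes tested were called (5.7% higher, 6.13% lower). Against imipramine 11 were called, all higher, where 8.37% of all genes tested were called (4.55% higher, 3.82% lower). Against fluoxetine 10 were called, 7 higher and 3 lower, where 10.3% of all genes tested were called (4.53% higher, 5.8% lower). Among the largest differences were those of Ndufa5 against tianeptine (0.45 ± 0.08, adjusted p = 0.00231) and Ndufs5 against imipramine (0.54 ± 0.08, adjusted p = 0.000891) and fluoxetine (0.44 ± 0.08, adjusted p = 0.0031). Ndufs7, a core iron-sulphur subunit of complex I, was called lower against tianeptine (-0.17 ± 0.05, adjusted p = 0.0464) and fluoxetine (-0.23 ± 0.05, adjusted p = 0.0129). The 3 comparisons share the agomelatine animals. On repeat against first control arrays Ndufs5 was higher (0.33 ± 0.05) and Ndufs7 lower (-0.11 ± 0.04) in all 3 control animals, while Ndufa5 was at 0.02. The part of that array difference in the comparisons between drugs was not tested. Imipramine against fluoxetine, which share a dose, called none of the genes (0% of all genes tested), with 57 of 73 below 0 and a median of -0.101 (all genes, -0.016). An unadjusted p under 0.05 was found for 15, all lower (20.5%, against 5.95% of all genes lower).

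Genes that serve the same pathway but are no subunits were called in both directions in agomelatine against stress, where 9.54% of all genes tested were called (3.78% higher, 5.76% lower). Of 35 assembly factors measured, 1 was higher (Lyrm7, which matures the Rieske protein of complex III, at 0.39 ± 0.09) and 2 were lower (Cox18, which inserts a complex IV subunit into the membrane, at -0.41 ± 0.09, and Timmdc1, a complex I assembly factor, at -0.34 ± 0.08). Of 23 genes for electron carriers and coenzyme Q synthesis, Coq10b was higher (0.32 ± 0.10), and Coq8b (-0.32 ± 0.09) and Pdss2 (-0.27 ± 0.07) were lower. Of 68 mitochondrial ribosomal proteins, 4 were higher and 5 lower, among them Mrps18a at 0.32 ± 0.07 and Mrps27 at -0.36 ± 0.07. In that comparison none of 18 regulators of mitochondrial biogenesis and none of 17 genes of the citric acid cycle was called. Of 17 glycolysis genes, Pfkp, a phosphofructokinase, was lower (-0.27 ± 0.07). In agomelatine against control, where 8.58% of all genes tested were called, each of the 6 lists had a called gene. Among them were 1 of 18 regulators of biogenesis, lower, 1 of 17 citric acid cycle genes, higher, and 3 of 68 mitochondrial ribosomal proteins, higher. As given above, the subunit genes called there depended on the control arrays used. Each list also had 1 or more called against at least 1 of the other drugs, where 8.37% to 11.8% of all genes tested were called. In the other 4 main comparisons none of these lists had a called gene. In stress against control 17 of 17 glycolysis genes lay above 0 (median 0.105) and 16 of 17 citric acid cycle genes (median 0.058), as did 57.2% of all genes tested (median 0.017). The glycolysis scores, computed as for the markers, were -0.001, 0.095 and 0.18 in stress animals, against 0.012, -0.314 and 0 in control animals, so that the groups overlapped and control animal 2 lay far below the rest. Citric acid cycle scores were -0.048, -0.007 and 0.117 in stress animals, against -0.033, -0.062 and -0.032 in control animals. Here stress animal 1 lay within the control range.

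The 3 genes below the minimum signal entered no test. Cox8b, the isoform of heart and muscle, had 7.43 in agomelatine animal 1, against 5.89 to 6.34 in the 17 other animals. That animal also had the choroid plexus score of 3.314, and the part of those cells was not tested. Cox8c and Cox6c-ps1 ranged from 6.26 to 6.86 and from 6.31 to 6.74 over the 18 animals.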

How the data were processed

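The authors deposited log2 values for each probe set. The submitters' processing notes name Affymetrix Expression Console 1.2 and RMA, which corrects background, normalizes by quantiles and summarizes probes. No source used here gives the genome build of the probe sets. They were named through the platform annotation and current rat gene symbols, and 15310 of 29214 had exactly 1 gene. Genes with a mean over the 18 animals at or above the 25th percentile of all probe sets were kept, 1 probe set per gene.

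limma 3.58.1 in R 4.3.3 was fitted to all 11940 genes with 1 mean per group and 12 residual degrees of freedom (eBayes with trend), and p-values were adjusted by Benjamini-Hochberg over all of them. A called gene has an adjusted p under 0.05. Differences are log2, with SE. The code was tested on simulated data. The members and gene lists were chosen with earlier results of these data known, so no list has a test. Named genes are the called ones, the 3 highest and 3 lowest differences of each main comparison, the 8 smallest F test p-values, the 3 largest and 3 smallest repeat array differences, a panel of subunits with known roles, and up to 4 called genes of each other list. Alternatives changed the control arrays, the signal filter (at the 25th percentile of named probe sets, chosen after seeing the data), the scaling, the variance model, array weights, the probe set rule, the threshold, the replicate block and single animals. Precision is limited by 3 animals a group. Similar genes and pseudogenes may share probe signal. Another 35 coding genes that fit the symbol rule were not analysed here. Correlations of deviations between animals with the same replicate number ran from -0.299 to 0.286 (median -0.022 over 45 pairs). Between animals with other numbers they ran from -0.343 to 0.3 (median 0.009 over 90 pairs). They cannot tell whether same-numbered samples were handled together, and the samples were not paired in the main fit.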

Additional observations from a re-analysis of the deposited data

How the results depend on the processing

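No comparison of the other drugs or of stress gained a called gene except as given here. Counts in this section are of the subunit genes. Shares of all genes called are given only for the main fit. So a changed count cannot be told from a general change in the number of genes called. In the F test 4 genes passed with all 21 arrays and the animal as a random block, and 3 to 11 when single animals were left out. In agomelatine against stress the random block gave 6, leaving out single animals gave 5 to 12, and the other alternatives gave 8 to 14. Agomelatine against control gave 15 with first arrays only, 2 with repeat arrays only, 1 with array weights, 10 at an adjusted p under 0.1, and 1 to 7 without single animals. Repeat control arrays alone gave 3 genes in stress, 5 in imipramine, 1 in fluoxetine and 1 in tianeptine against control. Imipramine against control gave 1 with array weights and 0 to 1 without single animals. Array weights gave 14 in imipramine against fluoxetine and 7 in agomelatine against tianeptine. Without single animals agomelatine gave 5 to 17 genes against imipramine and 7 to 18 against tianeptine. Repeat against first arrays gave 0 without trend and 15 with all probe sets tested. The replicate number as a block left 12 genes in agomelatine against stress, 9 in the F test and 6 in agomelatine against control. That block changed none of these counts. Ndufb2 in stress against control ran from -0.06 (without control animal 1) to 0.52 without single animals, and Ndufb7 in fluoxetine against stress from -0.39 to 0.07 (without fluoxetine animal 3). The cause of these shifts was not tested, beyond the smaller number of animals where one was left out. Medians over the 73 genes were small and changed sign in some settings. With equal array medians, which shift all genes of an array, they moved to -0.028 in stress against control and to 0.015 in tianeptine against stress. Without agomelatine animal 1 the median moved to -0.033 in agomelatine against stress.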
